A study of Mus musculus with 4 samples.

Results

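A set of 8 genes of the albumin family and other plasma carriers were followed in mouse embryonic stem cells (ESCs) with and without Dppa2. They are Alb, Afp and Afm, 3 of the albumin family; Ttr and Rbp4, which carry thyroid hormone and retinol; and Apoa1, Apob and Apoe, apolipoproteins of lipoprotein particles. The genes were selected on measured values, the difference between knockout and wild-type lines in these same 4 arrays, so their differences are given as a description, with no p-value. Where the text says whether limma called a member, that too only describes the values that chose it, and nothing is read from it. They are 8 of the 32301 genes and unnamed transcripts that the array could tell apart, and all 8 were matched, to 12 probes. Of the 8, 5 (Afm, Afp, Apob, Apoe and Rbp4) were above background in both lines of at least 1 genotype, as were 21639 of the 32301 genes and transcripts.

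RNA was measured in 4 ESC lines on 1-colour Agilent arrays labelled with Cy3. WT 1 and WT 2 were wild type at both ECAT15 loci (15-1+/+, 15-2+/+). KO 1 and KO 2 lacked ECAT15-2, the gene now called Dppa2 (15-2-/-), and were also homozygous for a conditional targeted allele at the neighbouring ECAT15-1 locus, now Dppa4 (15-1CT/CT). The 2 genotypes therefore differ at both loci, and the effects of the 2 alleles cannot be told apart. WT 1 and KO 1 came from blastocysts of mother 1046, and WT 2 and KO 2 from blastocysts of mother 875. The mice were a mixture of 129Sv, C57/BL6 and a transgenic background of unknown strain. All lines were grown for 3 days on gelatin in medium with 15% fetal calf serum and LIF, without feeder cells named in the labels. Each line is 1 sample.

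The albumin family arose by duplication, and its members are secreted mostly by liver cells. Albumin is the main protein of adult plasma, alpha-fetoprotein (Afp) takes that place in the fetus and is made by the yolk sac and fetal liver, and afamin (Afm) binds vitamin E and carries Wnt proteins. A further member, the vitamin D-binding protein Gc, lies farther along the same chromosome. Before the liver forms, visceral endoderm, the outer layer of the early embryo, makes many of these carriers, among them Afp, Ttr and the apolipoproteins. Apob is the structural protein of large lipoproteins, Apoa1 that of high-density lipoprotein, and Apoe is the ligand by which cells take lipoprotein remnants up.

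Signals are log2 values of the scanner's processed intensity, brought to the same 75th percentile on every array. A probe was counted as above background where the scanner software flagged at least 0.5 of its kept spots as well above it. The lowest such signals lay between 3.24 and 3.58 on the 4 arrays. The lines had similar shares of probes above background, 68.57% to 70.46%, and no spot was saturated. The targeted gene matched the labels: Dppa2 read 12.09 and 12.03 in the WT lines and 7.05 and 7.12 in the KO lines, 31.4-fold lower (log2 difference -4.97, limma adjusted p = 0.00890). The probe was still above background in both KO lines, and which part of the transcript it reads was not tested. Over the 21639 genes and transcripts tested, limma called 361 lower (1.67%) and 38 higher (0.176%) in the KO lines at an adjusted p under 0.05, and the median difference was 0.10.

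The promoters of the 4 albumin family genes are shown because they are related genes that gave different readings. Each run holds 250 bases before and 50 after the RefSeq start in the build GRCm38.p6, and capitals mark GTTAAT, read on either strand (ATTAAC on the other), the core of sites bound by the liver factor Hnf1.
Alb, chr5:90460620-90460919, plus strand: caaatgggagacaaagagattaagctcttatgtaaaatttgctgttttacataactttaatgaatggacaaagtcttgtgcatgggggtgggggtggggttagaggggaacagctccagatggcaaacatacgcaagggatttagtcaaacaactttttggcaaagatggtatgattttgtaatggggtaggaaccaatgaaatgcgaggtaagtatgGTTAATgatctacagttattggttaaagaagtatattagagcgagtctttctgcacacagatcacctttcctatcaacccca
Afp, chr5:90490464-90490763, plus strand: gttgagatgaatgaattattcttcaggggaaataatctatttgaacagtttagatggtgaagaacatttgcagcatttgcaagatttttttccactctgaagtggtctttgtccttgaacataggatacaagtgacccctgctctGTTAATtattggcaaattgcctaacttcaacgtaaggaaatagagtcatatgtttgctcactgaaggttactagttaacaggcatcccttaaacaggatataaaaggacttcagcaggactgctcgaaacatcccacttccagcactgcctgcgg
Afm, chr5:90518699-90518998, plus strand: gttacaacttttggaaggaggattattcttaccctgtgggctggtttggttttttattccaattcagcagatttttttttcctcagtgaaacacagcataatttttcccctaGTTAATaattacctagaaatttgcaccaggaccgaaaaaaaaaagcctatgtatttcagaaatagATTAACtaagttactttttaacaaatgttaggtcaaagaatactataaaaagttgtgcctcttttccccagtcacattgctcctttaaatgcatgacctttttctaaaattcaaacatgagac
Gc, chr5:89457849-89458148, minus strand: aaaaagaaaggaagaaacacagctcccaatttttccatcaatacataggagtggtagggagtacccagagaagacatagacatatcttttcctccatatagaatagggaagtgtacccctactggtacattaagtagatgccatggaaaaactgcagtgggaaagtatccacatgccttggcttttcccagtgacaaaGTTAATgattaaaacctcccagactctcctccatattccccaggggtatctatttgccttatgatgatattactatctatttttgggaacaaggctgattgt
GTTAAT was present in all 4, with 2 matches in Afm and 1 in each of the others, while 7.1% of 32851 RefSeq promoters of this length held it. The dinucleotide CG occurred 3 times in Alb and in Afp, 1 time in Afm and 0 times in Gc, against a median of 7 over all promoters. A match in a promoter is a description and shows no binding.

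Afm differed most among the 8 genes. It read 9.39 in WT 1 and 9.81 in WT 2, and 0.93 in KO 1 and 1.01 in KO 2. Both WT lines were well above background and both KO lines were not, so the groups did not overlap and the KO level has only an upper bound. Against the lowest signals above background, the KO lines were at least 79.8-fold lower. The WT mean was 9.60 ± 0.30 (SD, n = 2), and the KO signal averaged 0.97 ± 0.06 (SD, n = 2). The measured difference was -8.46 within mother 1046 and -8.80 within mother 875. In RNA from whole cultures, fewer cells making a transcript and less of it per cell cannot be told apart.

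As a description of the values that chose them, limma called Afm lower and no member higher, beside the 1.67% and 0.176% over all genes, and nothing is read from that count. Afm and Apob entered the test through the WT lines alone, since neither was above background in both KO lines. When the mother was added to the limma fit as a block, 0 members and 0 genes in all were called, so none of the calls named here held there, and 0 were called without WT 1, WT 2 or KO 2.

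Alb, the neighbour at the other end of the cluster, was not above background in any line. Its signals were 1.40 and 1.14 in WT and 1.01 and 1.15 in KO, all under the lowest signals counted as present. At these values the array sets no order between the lines, and no fold is given.

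Afp lies between Alb and Afm and was above background in every line. Its probe is printed as 10 spots, of which 9 or 10 were kept on an array, with means of 5.40 in WT 1, 3.98 in WT 2, 4.17 in KO 1 and 4.34 in KO 2. WT 1 stood above the other 3 lines, and the genotypes overlapped. The log2 difference was -0.43 (SE 0.54). The SE here and below is limma's moderated value, which borrows variance from all genes tested. It was -1.23 within mother 1046 and 0.36 within mother 875, and without WT 1 it turned to 0.27. The 2 WT lines differed 2.67-fold, while the spots of 1 array had an SD of only 0.14 to 0.25.

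**Figure D1:**
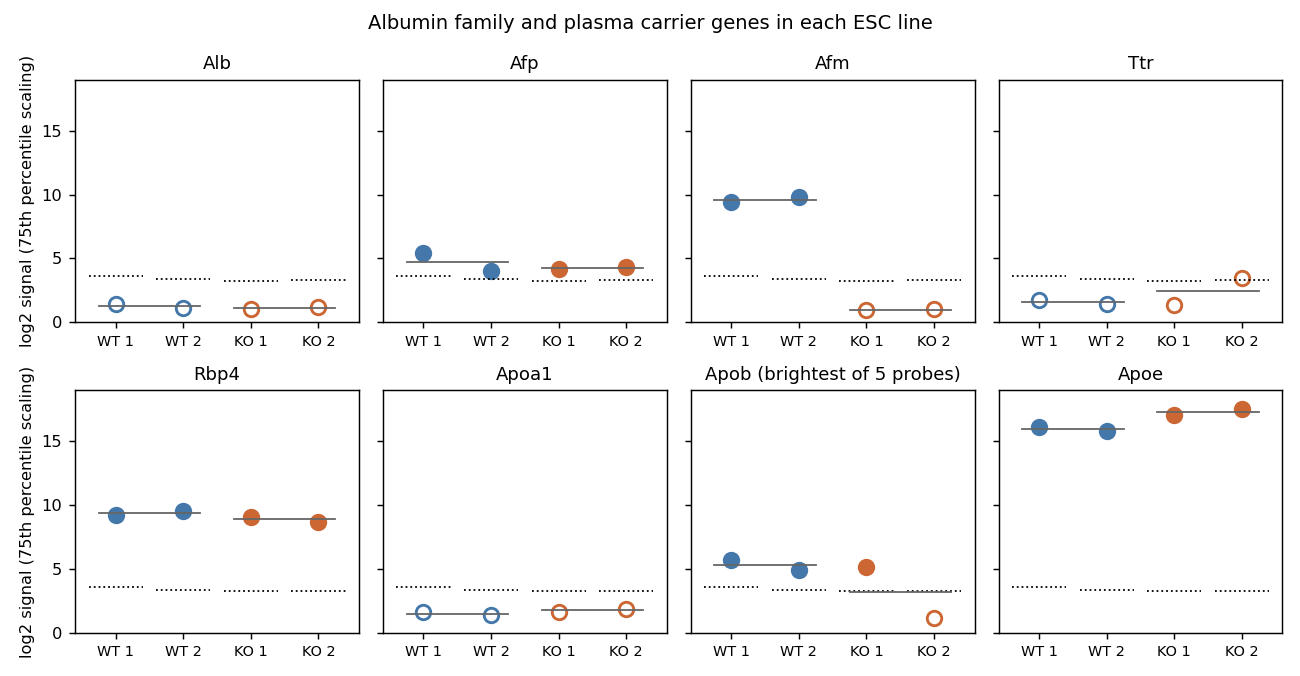
Log2 signal of the 8 genes (vertical axis) in each of the 4 ESC lines (horizontal axis), for Apob from its brightest probe. Filled points were above background and open points were not, grey bars are genotype means, and dotted lines are the lowest signals above background on each array; Afm is filled in the WT lines and open in the KO lines, while Apoe is highest in the KO lines.

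Of the 2 small-molecule carriers, Ttr (transthyretin) was not above background in any line. It read 1.69 and 1.44 in WT and 1.35 and 3.46 in KO. KO 2 stood above the other lines and near the lowest signal counted as present there, 3.32, but its spot was not flagged as above background.

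Rbp4, the serum carrier of retinol, was well above background throughout. It read 9.22 and 9.59 in WT and 9.07 and 8.70 in KO, so both KO lines lay below both WT lines. The difference was -0.52 (SE 0.23), or 1.43-fold lower, and it was not called. It was -0.15 within mother 1046 and -0.89 within mother 875, and ranged from -0.70 to -0.33 over the other ways of processing.

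Apoe was well above background in all lines and was higher in the KO lines. It read 16.17 and 15.83 in WT and 17.10 and 17.58 in KO, with no overlap. The difference was 1.34 (SE 0.25), or 2.53-fold higher, and it was not called. It was 0.93 within mother 1046 and 1.75 within mother 875, and between 1.09 and 1.58 over the other ways of processing. The 8 kept spots of its probe varied by an SD of 0.02 to 0.03 within an array, far less than the lines of either genotype did.

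Apoa1 was not above background in any line by the mean of its 10 spots, which were 1.62 and 1.40 in WT and 1.61 and 1.89 in KO. In KO 2, 1 of the 10 spots was flagged above background, and its spots ran from 1.11 to 4.53. That line's mean therefore rests on spots that disagree (SD 1.12).

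**Figure D2:**
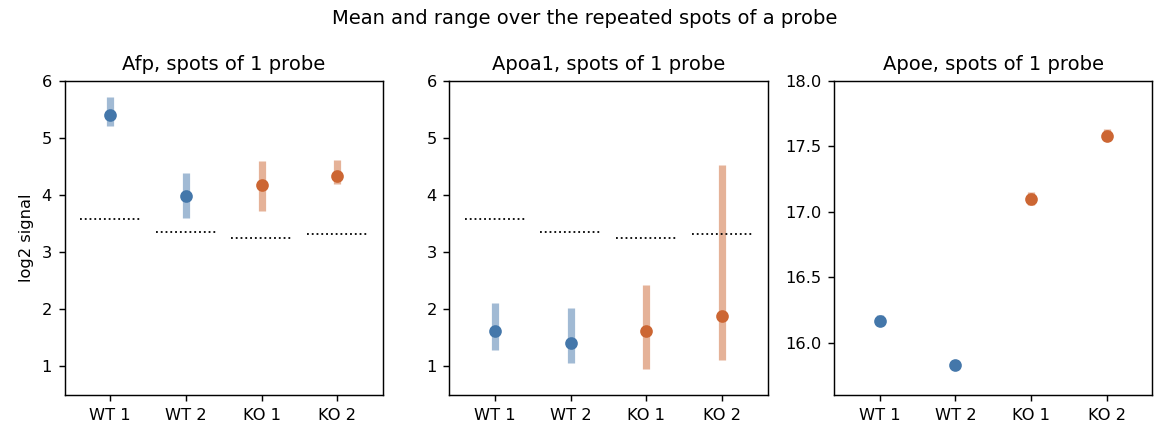
Log2 signal (vertical axis) of the probes of Afp, Apoa1 and Apoe that are printed as repeated spots, in each ESC line (horizontal axis); points are means, bars run from the lowest to the highest kept spot, and dotted lines are the lowest signals above background. The vertical axes differ, and the bars of Apoe are shorter than its points, while those of Apoa1 in KO 2 run from 1.11 to 4.53.

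Apob was represented by 5 probes, which disagreed. The brightest over the 4 arrays, A_51_P470542, read 5.73 and 4.95 in WT and 5.14 and 1.18 in KO. KO 1 lay among the WT lines and KO 2 was not above background, so its difference of -2.18 (SE 1.49) was -0.20 without KO 2. A second probe, A_52_P441070, read 6.35 and 6.15 in WT and 3.26 and 1.13 in KO, where neither line was above background. By that probe the KO lines were at least 7.79-fold lower. Without KO 1, A_52_P441070 was the brightest and stood for Apob, with a difference of -5.12.

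The other 3 Apob probes gave little signal. A_51_P380650 read 2.17 and 1.86 in WT and 3.74 and 2.78 in KO and was above background in KO 1 alone. A_51_P413088 and A_51_P436690 were not above background in any line. No single direction for Apob holds over its probes, and which transcripts each probe detects was not tested.

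**Figure D3:**
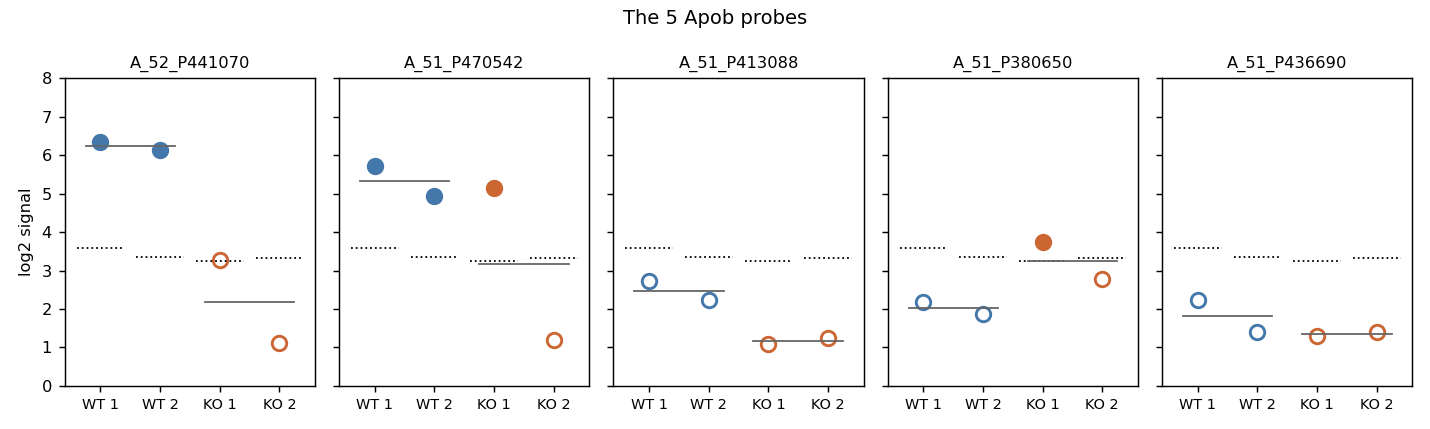
Log2 signal (vertical axis) of the 5 Apob probes in each ESC line (horizontal axis), with filled points above background, open points not above it, grey bars for genotype means and dotted lines for the lowest signals above background. A_52_P441070 is filled in the WT lines alone, A_51_P470542 in both WT lines and KO 1, and A_51_P380650 in KO 1 alone.

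Of the 5 members tested, Afm and Rbp4 did not overlap between genotypes and were lower in KO, and Apoe did not overlap and was higher. Over all genes tested, 24.5% were lower and 37.7% higher without overlap.

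The genes next to the cluster are given by side, and the sides were not tested against each other. Before Alb, Adamts3, a procollagen-processing protease, was not above background. Cox18, which helps assemble mitochondrial cytochrome oxidase, differed by 0.25 (limma adjusted p = 0.319), and Ankrd17, an ankyrin-repeat protein, by 0.10 (limma adjusted p = 0.687), with a sign that turned in 3 of 13 other settings. Neither was called.

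After Afm, Rassf6 and Cxcl5 fell. Rassf6, a Ras-association domain protein of the Hippo pathway, read 7.38 and 7.08 in WT and 2.53 and 3.11 in KO, at least 15.5-fold lower (limma adjusted p = 0.0242). Cxcl5, a chemokine that draws neutrophils, read 6.17 and 6.10 in WT and 1.05 and 1.62 in KO, at least 7.24-fold lower (limma adjusted p = 0.0191). Both were tested only because they were high in WT. Neither was above background in a KO line. Over 12 other settings the differences ran from -4.70 to -1.36 for Rassf6 and from -5.08 to -1.06 for Cxcl5, and each was called in 8 of the 12. Ppbp, a platelet chemokine, read 7.29 and 6.82 in WT and 5.35 and 4.11 in KO, 5.01-fold lower, and was not called (limma adjusted p = 0.124).

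The window was then widened to 8 genes with a probe on each side, after these values had been seen. Before Alb, 6 of the 8 were tested, none was called, 3 differences were negative and the median was 0.03. Slc4a4, a bicarbonate transporter, read 3.95 and 3.49 in WT and was not above background in KO, at 2.51 and 2.59. Mob1b, a Hippo pathway protein, differed by -0.42. Neither was called (limma adjusted p = 0.0986 and 0.183). Npffr2 was not above background in any line. After Afm, 4 of the 8 were tested (Rassf6, Cxcl5, Ppbp and the chemokine Cxcl1), 2 were called lower, all 4 differences were negative and the median was -3.37. That median leaves out the 4 untested genes: Pf4, Cxcl3 and Cxcl2 were not above background in any line, and Cxcl15 read 1.44 and 1.20 in WT and 2.21 and 4.21 in KO, above background in KO 2 alone. Over all genes tested 40.8% of differences were negative. Cxcl1 read 5.41 and 7.58 in WT and 3.52 and 5.46 in KO, so its genotypes overlapped, although it was lower in KO within each mother. Gc, which falls in the window before Alb and belongs to the albumin family, read 4.08 and 2.87 in WT and 4.38 and 4.57 in KO. It was not above background in WT 2, so it was tested through the KO lines alone, and it was not called (limma adjusted p = 0.286).

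**Figure D4:**
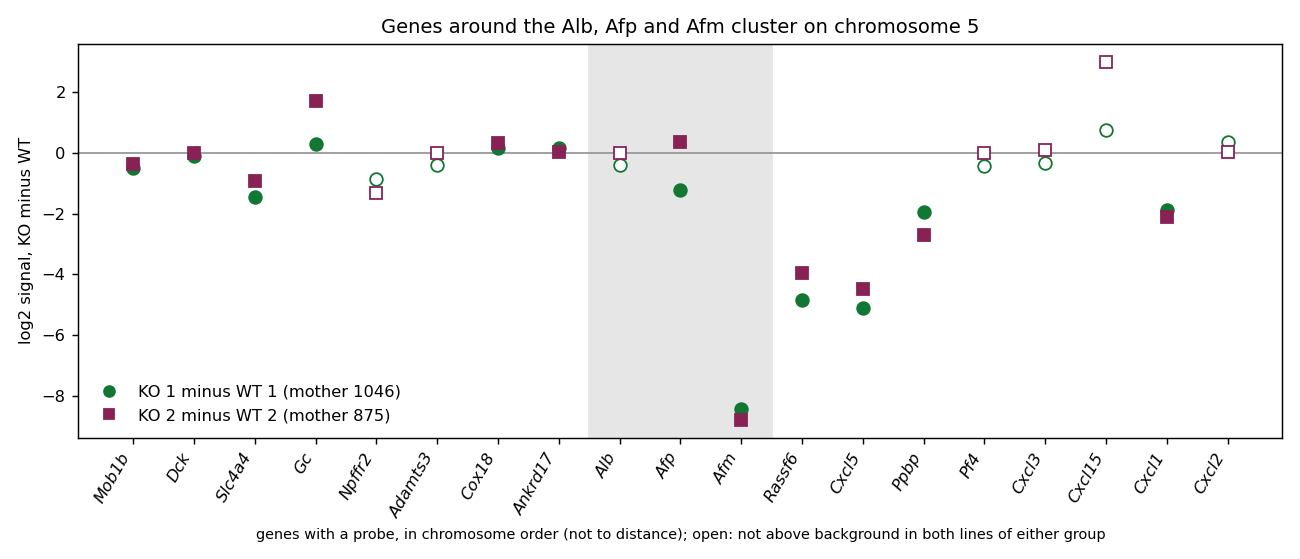
Log2 difference KO minus WT (vertical axis) within mother 1046 (circles) and mother 875 (squares) for genes with a probe around Alb, Afp and Afm (grey band), in chromosome order and not to distance (horizontal axis). Open symbols were not above background in both lines of either genotype. Afm, Rassf6, Cxcl5, Ppbp and Cxcl1, and before Alb also Mob1b, Slc4a4 and Npffr2 (open), lie below 0 in both pairs. Gc, Cox18, Ankrd17, Cxcl2 (open) and Cxcl15 (open) lie above it in both pairs. Afp, Dck, and the open Adamts3, Alb, Pf4 and Cxcl3 lie on both sides of it.

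The genes whose 4 values, centred on their own mean, lay closest to those of a member were found over all named genes tested. For Afm they included Tescl and Fam162b, at a root-mean-square distance of 0.42 and 0.48 log2 units over 4 arrays. Both were above background in both WT lines and in neither KO line, with KO at least 47.9-fold and 45.0-fold lower. For Afp they were Sspn, Ecm1 and Olfr971 (0.03, 0.07 and 0.07), each highest in WT 1. For Apoe they were Mia, Icosl and Rapgef3 (0.03, 0.03 and 0.04), and for Rbp4 Vash2, Msl3 and Usp47 (0.02, 0.03 and 0.04). With 4 arrays and many genes, close profiles are a description and no sign of a link.

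The surrounding pathways were read from lists of related genes that are not members. They held 225 distinct genes, and some stand in several lists, among them Lrp2, Dab2, Sox7 and Tbx3. Of the 172 tested, 10 were called lower and 3 higher by limma (adjusted p under 0.05), beside 1.67% and 0.176% over all genes. The lists were chosen with earlier results of these data known, so no excess is read from these counts.

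Among 35 other plasma carriers and secreted liver proteins, 15 were tested and none was called, with a median difference of 0.11 against 0.10 over all genes. Without 1 line in turn the median ran from -0.43 (without WT 2) to 0.08, and it was -0.13 without KO 1. F2 (prothrombin) read 7.51 and 6.65 in WT and 3.83 and 4.66 in KO, 7.13-fold lower (limma adjusted p = 0.0899). Fgg, the fibrinogen gamma chain, was 11.5-fold lower with KO lines at 2.03 and 4.73 (limma adjusted p = 0.181). Ttpa, the vitamin E transfer protein, was 1.63-fold lower and Itih4 1.34-fold higher, and neither was called (limma adjusted p = 0.173 and 0.189). A total of 16 genes of this list had no probe above background in any line.

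Of 21 other apolipoproteins and their partners, 15 were tested, 1 was called lower and none higher, and the median was 0.06. Saa2, an acute-phase apolipoprotein, fell 2.63-fold (limma adjusted p = 0.0478), and that call was lost in all 13 other settings with 1 probe a gene (0.0539 to 0.239). With every probe tested separately, 1 probe of this list was called lower. Apobec1, the editing enzyme of Apob mRNA, was 2.23-fold higher and not called (limma adjusted p = 0.0722). Apof was 4.60-fold higher (log2 difference 0.48 to 2.60 over 12 other settings) and Apoc4 at least 2.64-fold lower, and neither was called (limma adjusted p = 0.0823 and 0.0847). Apoc1, named for its place beside Apoe after its values were seen, read 13.22 and 12.74 in WT and 13.70 and 14.62 in KO, 2.27-fold higher and not called (limma adjusted p = 0.206).

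Genes of lipoprotein assembly, lipolysis and efflux changed in both directions: of 18 tested, 2 fell and 2 rose, with a median of -0.04. Lipa, the lysosomal acid lipase that frees cholesterol from particles taken up, fell 10.6-fold, from 8.53 and 8.39 to 4.92 and 5.18 (limma adjusted p = 0.0173). Abca1, which loads cellular cholesterol onto Apoa1, rose 3.39-fold, from 8.86 and 8.92 to 10.53 and 10.77 (limma adjusted p = 0.0382). Pltp, the phospholipid transfer protein, rose 2.94-fold (limma adjusted p = 0.0400). The WT and KO lines did not overlap for Lipa, Abca1 or Pltp.

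Of 19 receptors and recycling genes tested, 2 fell and none rose, with a median of 0.07. They were Lrp2 (megalin), an endocytic receptor of many carriers including retinol-binding protein, 5.27-fold lower at 14.11 and 14.43 in WT and 11.79 and 11.95 in KO (limma adjusted p = 0.0313), and its adaptor Dab2, 3.37-fold lower (limma adjusted p = 0.0381). Amn (amnionless), the partner of cubilin, was 3.03-fold lower and Tfrc, the transferrin receptor, higher by 0.58 on the log2 scale, and neither was called (limma adjusted p = 0.128 and 0.118).

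In retinoid and thyroid hormone handling, 1 of 21 genes tested fell and none rose, and the median was -0.76. Aldh1a3 and Rdh10, enzymes of retinoic acid synthesis, were 3.13-fold and 2.71-fold lower and Rarg, a retinoic acid receptor, 1.95-fold higher, and none was called (limma adjusted p = 0.0520, 0.0534 and 0.0815).

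None of 26 regulators of the liver and yolk sac program was called, and their median was 0.42. Tbx3, also counted among the pluripotent stem cell markers, was 2.84-fold and the endoderm factor Sox7 2.71-fold higher (limma adjusted p = 0.104 and 0.114). The liver factor Foxa3 was 1.46-fold higher and Cebpa 2.90-fold lower (limma adjusted p = 0.152 and 0.124).

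**Figure D5:**
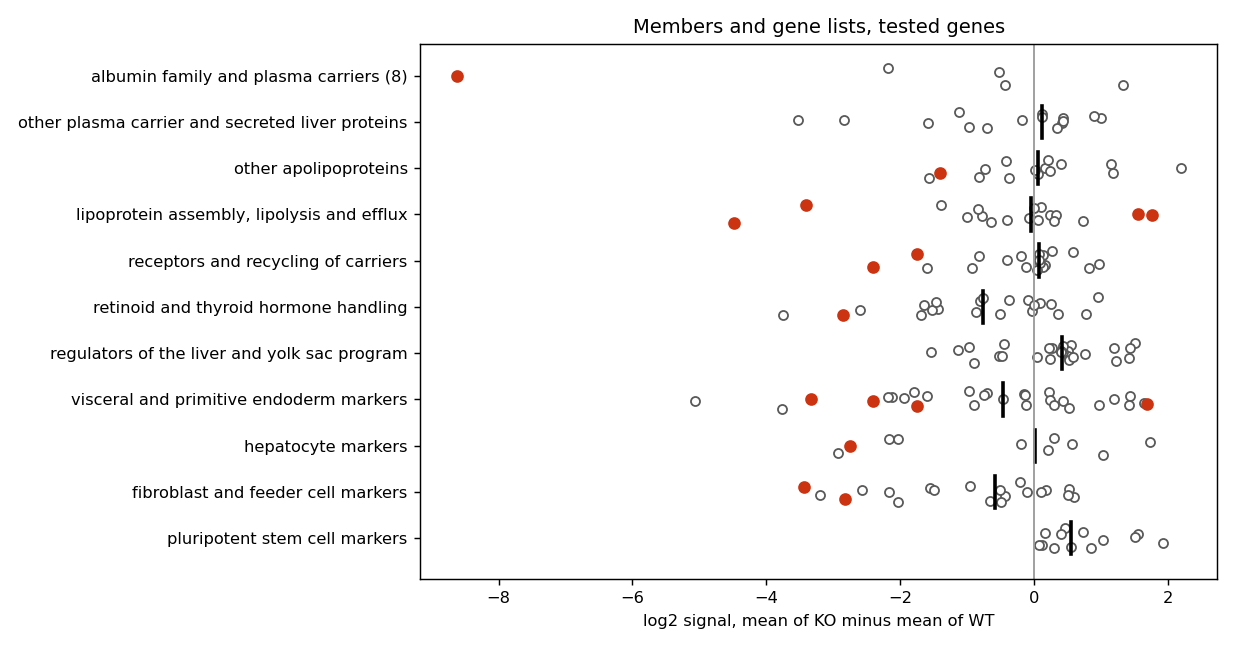
Log2 difference KO minus WT (horizontal axis) of each tested gene, for the 8 chosen genes (5 tested) and 10 lists of other genes (vertical axis, with points spread within a row for sight). Red points were called by limma, open points were not, and black bars are list medians; Afm is the point farthest left, and the medians of the lists lie between -0.76 and 0.55.

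Markers of cell types that make these carriers were measured beside them. Of 32 visceral and primitive endoderm markers, 29 were tested, with a median of -0.46 and 18 differences negative. Limma called 3 lower (Cpn1, Lrp2 and Dab2) and 1 higher (Lama1). The markers went in both directions. Pdgfra (log2 difference 1.64), Sox7 (1.44), Sox17 (1.42), Gata6 (1.19) and Gata4 (0.53) were higher in KO within both mothers, and none of them was called. In each line 28 of the markers were above background. The log2 of the summed signal was 16.82 to 16.89 in WT and 16.24 to 16.49 in KO. Bright markers weigh most in that sum. In WT 1, Emb read 14.88, Sparc 14.37, Lefty1 14.28 and Lrp2 14.11, while Gata4 read 4.79. Cpn1, a carboxypeptidase subunit, was at least 6.67-fold lower (limma adjusted p = 0.0281; log2 difference -3.52 to -0.69 over 12 other settings, called in 5), and Lama1, a laminin chain of basement membrane, rose 3.21-fold (limma adjusted p = 0.0398).

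Of 20 hepatocyte markers, 10 were tested and 1 was called lower, Krt8, a keratin that other epithelial cells also make (6.72-fold, limma adjusted p = 0.0497), which was called in 4 of 13 other settings. The median was 0.01, and 9 or 10 of them were above background in a line. The log2 of the summed signal was 18.15 and 18.53 in WT and 16.58 and 16.30 in KO. Most of that sum is the 2 keratins: Krt8 read 17.03 and 17.46 in WT and 14.77 and 14.22 in KO, and Krt18 17.12 and 17.51 in WT and 15.42 and 14.88 in KO. Krt18, the partner of Krt8, was 4.47-fold lower and not called (limma adjusted p = 0.0655). Ass1, of the urea cycle, was 2.05-fold and Fah, of tyrosine breakdown, 1.48-fold higher, and neither was called (limma adjusted p = 0.0932 and 0.177).

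All 20 fibroblast and feeder cell markers were tested, 2 were called lower and none higher, and the median was -0.58. Mmp2, a matrix protease, fell 10.8-fold (limma adjusted p = 0.0224) and Fbn1, a microfibril protein, 7.07-fold (limma adjusted p = 0.0253). Twist2 was 5.92-fold and Col5a1 4.08-fold lower, and neither was called (limma adjusted p = 0.0738 and 0.0925). The log2 of the summed signal was 17.01 to 17.70 in WT and 16.34 to 16.57 in KO, and 19 or 20 of the markers were above background in a line. Without 1 line in turn the median ran from -1.50 to -0.20.

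All 13 pluripotent stem cell markers tested were above background in every line and none was called, with a median of 0.55. They include Dppa4, whose locus carries the conditional targeted allele in both KO lines. Klf4, Esrrb and Sox2 were 3.80-fold, 2.94-fold and 1.80-fold higher (limma adjusted p = 0.101, 0.0971 and 0.0886). The summed log2 signal was 19.10 to 19.13 in WT and 19.45 to 19.66 in KO. The part of these markers in the values of Afm, Apob and Apoe was not tested.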

How the data were processed

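Total RNA of 4 ESC lines, 2 of each genotype, was hybridised to 1-colour arrays on 1 slide. Per the file headers, the deposited intensity values came from Agilent Feature Extraction 10.7.3.1, which subtracted background. The authors' deposited log2 table (GeneSpring GX11, per the labels) was used as an alternative. Its columns, recorded as quantile-normalized, followed the scanner values with correlations of 0.99989 to 0.999983 and medians of 6.55. How it was centred stays unknown. With it 270 genes were called lower, beside 264 under quantile scaling. As both rest on quantile normalization, they are not separate checks. Whether the same genes were called was not tested.

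Control spots and outlier-flagged spots were left out, log2 intensity was scaled to the 75th percentile of each array, and spots of a probe were averaged. Of 41174 gene probes, 26690 had 1 symbol by RefSeq accession and 14484 had none. Probes were kept if both arrays of either genotype were above background, and the brightest probe stood for its gene. KO was set against WT using limma 3.58.1 (R 4.3.3) and Benjamini-Hochberg adjustment at 0.05; the code was tested on simulated data. "At least" folds set the bright group's mean log2 against the mean of each dim array's lowest signal above background, or the probe's own signal where higher. The number of arrays limits the precision. Each SE and p-value came from limma's moderated variance. That variance draws the spread between 2 lines a group toward a value shared by all genes tested. An SE can therefore be smaller or larger than a gene's own lines would give.

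The replicate number marks a shared mother, per the labels, and so pairs the lines. The difference between mothers correlated at 0.189 across genes between genotypes. Blocking on the mother is an alternative. Normexp used median rather than mean signals.

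The genes named outside the 8 were, of each list, the up to 4 with the smallest p and any called. The 3 closest profiles and 3 neighbours on each side of the cluster were also named. Apoc1, Gc, Cxcl1, the other genes of the wider window and the remaining endoderm markers named were added after their values were seen. Some genes that this rule picks are counted but not reported here by name. The members and lists were chosen with earlier results of these data known. The arrays' headers name mm9, so coordinates are given only for the promoters, in their own build. Gene order came from RefSeq's GRCm38.p6 table.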

Additional observations from a re-analysis of the deposited data

Results flagged for a closer look

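Afp differed in direction between the 2 pairs of lines. KO minus WT was -1.23 on the log2 scale within mother 1046 (KO 1 against WT 1) and 0.36 within mother 875 (KO 2 against WT 2). All 4 lines were above background. With 1 line of each genotype per mother, the difference between the pairs was not tested.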

How the results depend on the processing

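Over the other ways of processing (14 in all), the sign of the difference held for Afm, Apob, Apoe and Rbp4 wherever they were tested. Afp turned to 0.27 without WT replicate 1 and was -1.14 without WT replicate 2. Apob ran from -5.12 without KO replicate 1 to -0.20 without KO replicate 2. The brightest probe was chosen anew in each setting, so these Apob values come from different probes, A_52_P441070 and A_51_P470542 in that order. Afm was -3.80 under normexp with the 75th percentile and -3.70 under normexp with quantile scaling, which add an offset of 50 to every signal.

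Counts of calls depended on the setting. With the replicate block (mother), and with probes required above background on all 4 arrays, limma called 0 genes lower and 0 higher, 0 members lower, and 0 listed genes lower and 0 higher. Unadjusted p-values under 0.05 numbered 2736 lower and 2278 higher (block; 48 and 27 of the listed genes) and 2184 and 2444 (all 4 arrays; 42 and 25). The stricter filter also removes Afm and Apob. Normexp with the 75th percentile gave 69 genes higher, 2 members lower and 18 listed genes lower. Without a filter 10 genes were higher and 0 listed genes (24 by unadjusted p under 0.05), and with the trend and robust prior 80 were higher.

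Leaving out 1 line in turn gave 0 to 732 genes lower, 0 to 153 higher, 0 to 2 members lower, 0 to 14 listed genes lower and 0 to 2 higher. The calls were lost without WT 1, WT 2 or KO 2 and the highest counts came without KO 1; the lone line is then taken to vary like the other genotype. List medians near 0 also turned sign without 1 line: -0.17 to 0.15 for the other apolipoproteins, -0.09 to 0.03 for the receptors and -0.07 to 0.16 for the hepatocyte markers. No member was called higher in any of these settings. Signal over background limits Alb, Ttr and Apoa1, for which no change can be read.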
